A study of Mus musculus with 12 samples.

Results

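Ribosome biogenesis factors are the nucleolar proteins that transcribe, cut, modify and fold ribosomal RNA and build it into the small (40S) and large (60S) ribosomal subunits. The set described here is a list of 40 mouse genes of this kind, and its members were the listed symbols that have a non-control probe through the RefSeq accession on the array. That gave 39 members of 18539 genes with a symbol on the array. Nop56, a core protein of box C/D ribonucleoproteins, was the listed gene without such a probe. Each gene was read from its brightest probe by mean level, and 20 members had 1 probe and 19 had several. All 39 passed the filter on dim probes, which asked that some group have the probe well above background in each of its 3 arrays.

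One-colour oligonucleotide arrays measured messenger RNA of the distal colorectum in female BALB/c mice at day 100, in 4 groups of 3 arrays. The AOM/DSS group received azoxymethane (AOM, a colon carcinogen) once at 12.5 mg/kg on day 1, and then dextran sulfate sodium (DSS, a colitis-causing agent) in drinking water for 5 days of each 21-day cycle, over 3 cycles from day 5, and its arrays hold clipped neoplasms kept in RNA storage solution. The AOM group received 6 weekly injections of 10 mg/kg without DSS, the DSS group received the same 3 DSS cycles without AOM, and the control group received neither. In the AOM, DSS and control groups the epithelium was scraped off and kept in Trizol. Disease, AOM dose, sampling method and storage therefore all separate the AOM/DSS arrays from the others and cannot be told apart. The sources used here do not say whether the replicates are separate mice, so the spread behind each p-value is that between these arrays and may be technical.

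All values are levels on a log2 scale: the processed intensity of the probe minus the 75th percentile of its array, so that 0 is the brightness of that percentile and a difference of 1 is a doubling. That percentile lay at an intensity of 1115 to 1185 on AOM/DSS arrays, 454 to 694 on AOM arrays, 434 to 670 on DSS arrays and 393.5 to 677 on control arrays, and no spot was saturated. The 3 slides did not hold the groups evenly: slide 1 held AOM/DSS replicates 1 and 2 with AOM replicates 1 and 2, slide 2 held AOM replicate 3 with all DSS arrays, and slide 3 held AOM/DSS replicate 3 with all control arrays. The median level of 9 exocrine pancreas markers, each relative to its own mean over the 12 arrays, stood at 7.84 on control replicate 3, 5.79 on DSS replicate 1 and 3.47 on control replicate 1, against 0.65 or lower on the other 9 arrays. Counts without control replicate 3 and DSS replicate 1 are given beside each comparison. For 8 of 10 epithelial markers the level was lower in AOM/DSS neoplasms than in controls, with a median log2 difference of -1.24. Fibroblast markers were higher than in control for 5 of 7 genes in AOM/DSS and 4 of 7 in AOM, with medians relative to their own means of -2.31, -2.85 and 0.59 on the control arrays. Endothelial markers stood at 0.07 to 0.43 on AOM/DSS and 0.28 to 1.00 on AOM arrays, against -1.96, -2.15 and 0.19 on the control arrays. Smooth muscle markers stood at -1.29 to -1.07 on AOM/DSS arrays, against 0.54 to 0.98 on AOM arrays and -2.05 to 1.16 on control arrays. Of 11 leukocyte markers, 3 (27.3%) were higher and 2 (18.2%) lower in AOM/DSS, and 4 (36.4%) higher and 0 lower in AOM, each against control. Over all genes 17.2% were higher and 3313 of 18958 lower in AOM/DSS, and 14.8% and 17.6% in AOM. S100a8, a neutrophil protein among them, had levels of 3.03, 5.13 and 5.65 on AOM/DSS arrays, 0.47, 2.50 and 2.32 on AOM arrays and -2.69, -4.34 and -3.75 on control arrays. Other markers of this list went the other way in AOM/DSS. Ms4a1 had levels of -1.51, -4.55 and -1.38 on AOM/DSS arrays against 2.03, 0.26 and 3.0 on control arrays. Cd79a had -4.83, -5.74 and -4.69 against -2.63, -3.32 and -2.05. The part of these cell types in the results was not tested, and in bulk tissue fewer cells of a type and less RNA per cell cannot be told apart.

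A ribosome begins as a long precursor RNA made by RNA polymerase I in the nucleolus. Small nucleolar ribonucleoproteins (snoRNPs) chemically mark it, the small subunit processome and later factors cut and fold the 40S part, and the PeBoW complex and other factors build the 60S part. Dividing cells need many ribosomes, and the transcription factor Myc is known to activate genes of this pathway through E-box sequences.

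Promoter windows are shown because so many members moved together, and they let the starts of these genes be compared directly. RefSeq windows on GRCm38.p6 (250 bases before to 50 bases after the annotated start) were matched by symbol for 35 of the 40 listed genes; the others were Fbl, Rrs1, Bop1, Npm1 and Rrp12. Gnl3, Gar1 and Nop16 had the largest rises in AOM/DSS neoplasms over control, Nop14 had probes that disagreed, and Nop2, Pes1 and Wdr43 were members called higher there whose windows hold an E-box. Capitals mark matches on either strand to the E-box CACGTG, the ETS core CCGGAAG, the YY1 motif AAGATGGCG and the GC box GGGCGG, and overlapping GC boxes run together.
Gnl3, chr14:31019082-31019381, minus strand: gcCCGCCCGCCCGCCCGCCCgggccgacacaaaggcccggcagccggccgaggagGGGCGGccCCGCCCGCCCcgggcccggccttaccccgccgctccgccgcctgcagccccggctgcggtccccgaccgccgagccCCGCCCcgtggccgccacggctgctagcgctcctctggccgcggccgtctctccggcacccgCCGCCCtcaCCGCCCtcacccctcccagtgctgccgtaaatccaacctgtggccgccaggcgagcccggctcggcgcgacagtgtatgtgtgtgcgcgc
Gar1, chr3:129831347-129831646, minus strand: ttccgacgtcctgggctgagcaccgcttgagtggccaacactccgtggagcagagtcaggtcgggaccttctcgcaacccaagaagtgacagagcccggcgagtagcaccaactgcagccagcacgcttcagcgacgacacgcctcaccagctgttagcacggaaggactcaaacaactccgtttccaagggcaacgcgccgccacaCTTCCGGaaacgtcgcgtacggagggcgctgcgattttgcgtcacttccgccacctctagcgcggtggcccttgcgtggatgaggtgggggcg
Nop16, chr13:54590025-54590324, minus strand: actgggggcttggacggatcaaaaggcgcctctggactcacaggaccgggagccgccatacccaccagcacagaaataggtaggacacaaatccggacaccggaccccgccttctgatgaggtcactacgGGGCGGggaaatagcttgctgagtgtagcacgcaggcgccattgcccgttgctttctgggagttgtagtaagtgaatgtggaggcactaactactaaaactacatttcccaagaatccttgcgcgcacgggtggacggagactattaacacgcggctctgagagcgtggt
Nop14, chr5:34660099-34660398, minus strand: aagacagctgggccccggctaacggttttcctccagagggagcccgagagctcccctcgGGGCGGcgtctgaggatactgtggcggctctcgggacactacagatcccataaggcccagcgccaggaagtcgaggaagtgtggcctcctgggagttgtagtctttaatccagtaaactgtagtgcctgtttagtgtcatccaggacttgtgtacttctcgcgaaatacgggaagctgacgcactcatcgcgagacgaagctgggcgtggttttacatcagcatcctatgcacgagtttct
Nop2, chr6:125131633-125131932, plus strand: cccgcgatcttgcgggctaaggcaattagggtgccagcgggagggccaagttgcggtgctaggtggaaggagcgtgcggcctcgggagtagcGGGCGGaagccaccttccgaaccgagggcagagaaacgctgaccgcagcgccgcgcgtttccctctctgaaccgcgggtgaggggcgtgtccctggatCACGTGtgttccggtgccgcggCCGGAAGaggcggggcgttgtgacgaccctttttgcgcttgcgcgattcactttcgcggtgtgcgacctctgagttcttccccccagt
Pes1, chr11:3963725-3964024, plus strand: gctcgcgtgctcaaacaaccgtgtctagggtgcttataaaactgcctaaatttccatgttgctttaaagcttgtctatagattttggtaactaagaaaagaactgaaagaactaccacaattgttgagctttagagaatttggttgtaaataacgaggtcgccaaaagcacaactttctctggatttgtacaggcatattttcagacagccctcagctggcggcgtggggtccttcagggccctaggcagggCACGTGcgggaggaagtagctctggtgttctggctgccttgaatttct
Wdr43, chr17:71615965-71616264, plus strand: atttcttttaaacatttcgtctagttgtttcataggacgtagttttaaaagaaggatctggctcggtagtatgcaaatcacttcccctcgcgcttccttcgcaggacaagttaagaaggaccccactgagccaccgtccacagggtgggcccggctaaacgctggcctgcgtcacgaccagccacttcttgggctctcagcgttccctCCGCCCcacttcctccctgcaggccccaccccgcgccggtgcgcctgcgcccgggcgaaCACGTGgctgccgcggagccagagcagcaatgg

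The E-box was found in 6 of 35 windows (17.1%), those of Imp4, Nop2, Pes1, Tsr1, Utp20 and Wdr43, against 8.09% of all 27025 genes with a window. In Nop2 its first base lay 60 bases before the start, and in Pes1 and Wdr43 it lay at positions 3 and 18 after it. Imp4, Tsr1 and Utp20 also hold an E-box and were not called in AOM/DSS against control. Their differences were 0.85, -0.25 and -0.53. A link between the E-box and the differences was not tested. The ETS core was in 13 windows (37.1%, against 9.93% of genes), Gar1 and Nop2 among the 7 shown, and the GC box was in 28 (80.0%, against 38.20%). Gnl3 had 10 GC box matches, several of them overlapping, and neither an E-box nor an ETS core. The YY1 motif was in 1 window, that of Imp4 (2.9%, against 1.64%). These are letter matches only, and the set of all genes includes non-coding ones.

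The 39 members differed among the groups more often than the array as a whole, and their levels were mostly high in AOM/DSS neoplasms and AOM epithelium and low in DSS and control epithelium. A difference among the 4 groups passed for 31 of 39 members, where 52.6% of all 18958 genes tested passed (limma F test, Benjamini-Hochberg adjusted p under 0.05). Of these 18958, 13516 had a symbol. The rest were sequences without a symbol, each counted as a gene in every share and median over all genes. Relative to each gene's own mean over the arrays, the members' median level was 0.58, 0.38 and 0.60 on the AOM/DSS arrays, 0.25, 0.33 and 0.51 on the AOM arrays, -0.64, 0.05 and -0.29 on the DSS arrays, and -0.96, -0.33 and -0.34 on the control arrays. All AOM/DSS and AOM arrays thus lay above all DSS and control arrays. Control replicate 1 was the lowest of the 12 arrays for 27 of the 39 members, and AOM/DSS replicates 1 and 3 were the highest for 10 members each. The all-gene shares for these counts were not computed. Control replicate 1 also had the lowest 75th percentile of processed intensity.

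**Figure D1:**
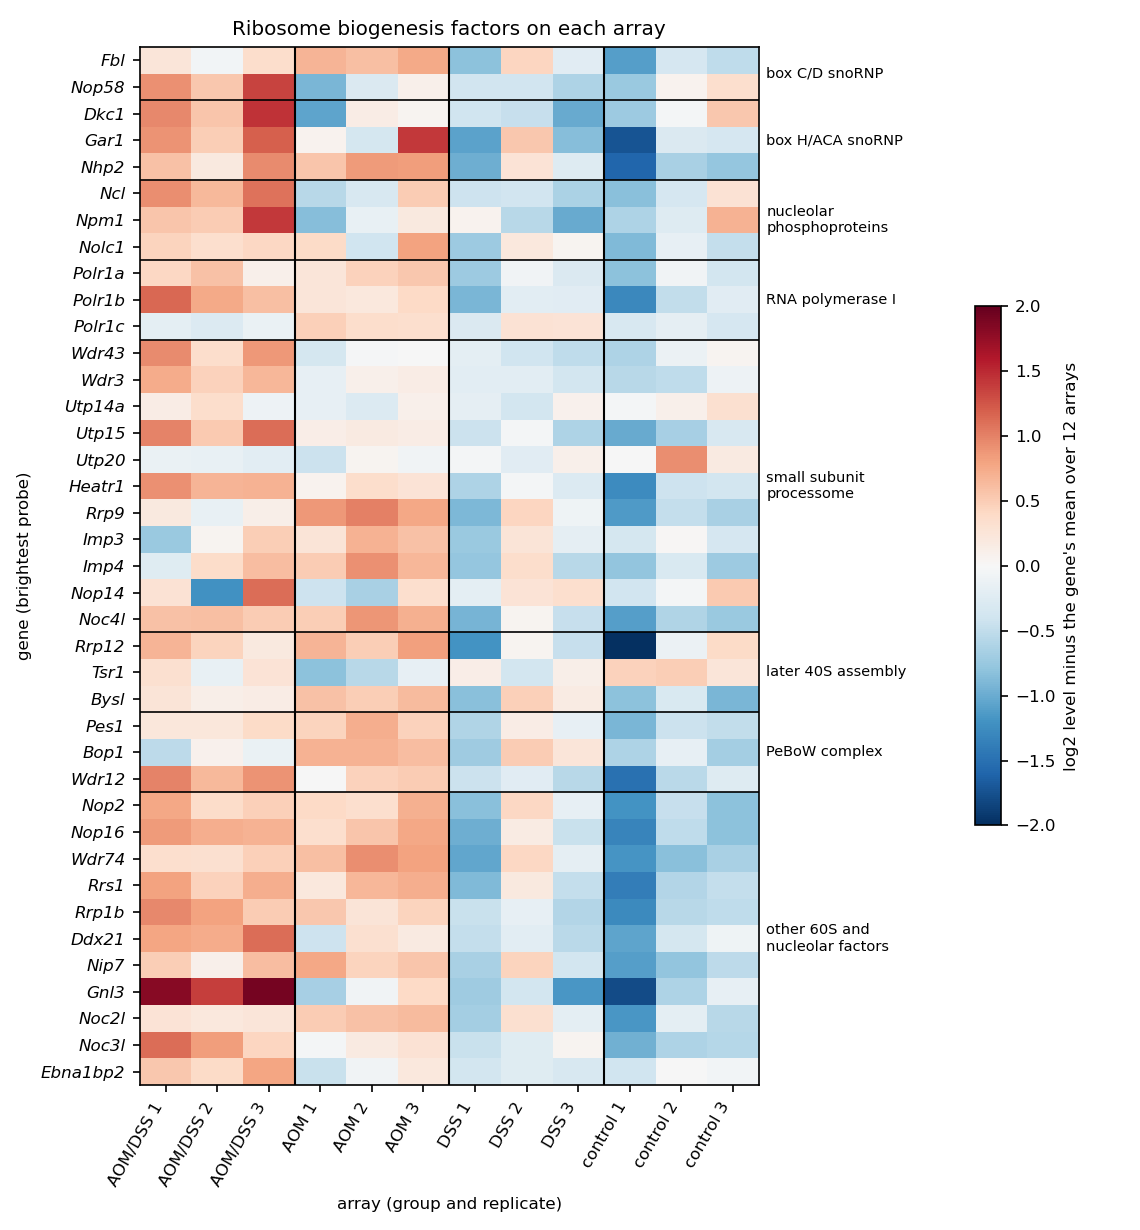
Level of each of the 39 members (rows, grouped by role) on each of the 12 arrays (columns), as the log2 level minus the gene's mean over the 12 arrays, with red above and blue below that mean. The AOM/DSS and AOM columns are mostly red, the first control column is the bluest, and Gnl3 is the darkest red row in the AOM/DSS columns.

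In AOM/DSS neoplasms against control epithelium, 24 of 39 members (61.5%) were higher and 0 lower, where 17.2% of all genes tested were called higher (limma with Benjamini-Hochberg adjustment over all genes, adjusted p under 0.05, n = 3 arrays a group). The median difference over the 39 members was 1.02 on the log2 scale, a fold of 2.03, beside 0.03 over all genes tested and 0.01 over those with a symbol. All 11 of the other 60S and nucleolar factors rose, from Ebna1bp2 (0.73) to Gnl3 (2.57), while 0 of the 3 later 40S assembly factors passed. The lowest AOM/DSS array was above the highest control array for 30 members (76.9%), as for 26.3% of all genes. Utp20 and Tsr1 had negative differences, -0.53 (adjusted p = 0.13) and -0.25 (adjusted p = 0.46). With slide as a block, where AOM/DSS replicate 3 is set against the controls of its own slide, the median was 1.22 and 4 members kept the call (Gnl3, Utp15, Ddx21 and Nhp2). Of all 18958 genes, 935 were called higher in that setting. Utp15 was well above background on 1 of 3 control arrays and turned to -0.46 with normexp background correction. Within slide 3, 35 of 39 members were higher on its 1 AOM/DSS array than on all 3 controls. The all-gene share for that count was not computed. Without control replicate 1 the count of members called higher was 15 (38.5%, against 10.6% of all genes) with a median of 0.76. Without DSS replicate 1 and control replicate 3 it was 30 (76.9%, against 20.6%) with a median of 1.26.

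AOM epithelium against control epithelium gave a count of similar size, 22 members higher (56.4%) and 1 lower (Tsr1), where 14.8% of all genes were called higher and 17.6% lower. The median difference was 0.91, a fold of 1.88, beside -0.01 over all genes. It was 0.16 over the genes with a symbol and -0.62 over the sequences without a symbol. All 3 RNA polymerase I subunits and all 3 PeBoW proteins rose, as did 8 of the 11 other 60S and nucleolar factors, and 0 of the 3 nucleolar phosphoproteins passed. The lowest AOM array was above the highest control array for 24 members (61.5%), as for 22.6% of all genes. No slide held both groups. With slide as a block the median was 0.81 and 0 members were called, where 4 of all 18958 genes were called. Without the block 25 of 39 members had an unadjusted p under 0.05 by limma, as had 8782 of all 18958 genes. The count higher was 8 without control replicate 1 (20.5%, against 5.74% of all genes) and 10 without AOM replicate 2 (25.6%, against 4.82%). Leaving out DSS replicate 1 and control replicate 3 gave 24 higher (61.5%, against 18.6%) and 1 lower. Both comparisons share the control arrays, so their values are set side by side here and not counted as separate evidence.

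DSS epithelium against control epithelium gave 0 calls among the members by limma, where 0.327% of all genes were called in either direction. By limma 0 of 39 members had an unadjusted p under 0.05, where 3997 of all 18958 genes had. The median difference was 0.32, from Dkc1 (-0.55) to Nhp2 (0.68). That median was -0.01 with normexp background correction and 0.15 with slide as a block. The lowest DSS array was above the highest control array for 1 member (2.6%), as for 8.87% of all genes. Without DSS replicate 1, 6 members were called higher (15.4%, against 5.33% of all genes). Without it and control replicate 3 the count was 4 (10.3%, against 9.3% of all genes), near the background, with a median of 0.63.

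**Figure D2:**
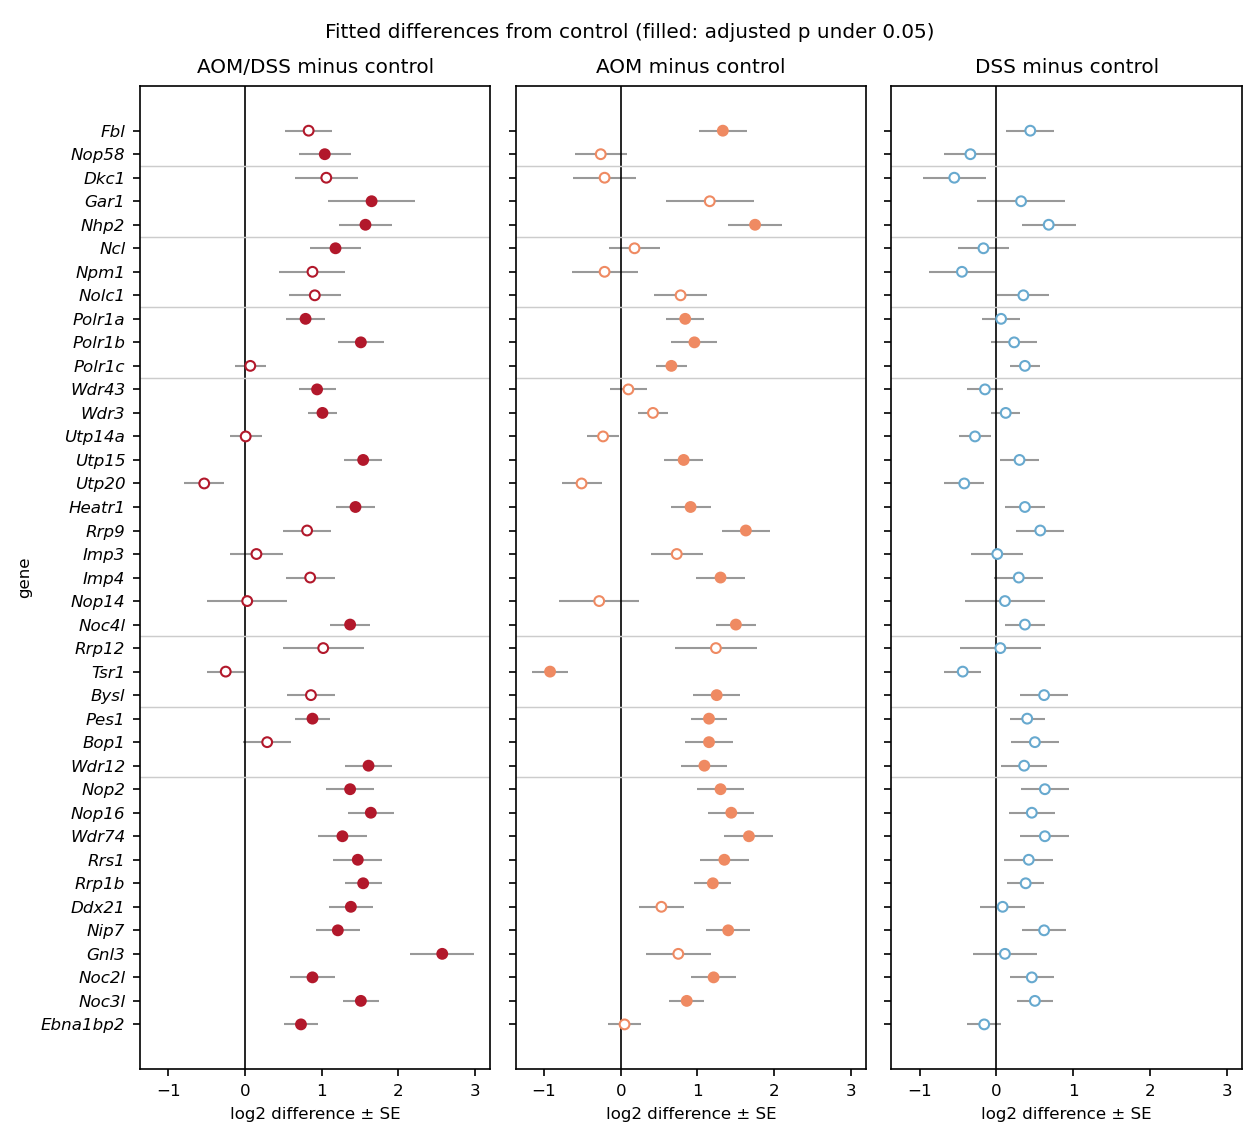
Fitted log2 difference from control with its standard error (bars) for each member in AOM/DSS, AOM and DSS, from limma with 3 arrays a group; filled points have an adjusted p under 0.05. The 24 filled points under AOM/DSS all lie to the right of 0, AOM has 22 to the right and Tsr1 to the left, and DSS has none.

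Box C/D snoRNPs methylate ribosomal RNA and box H/ACA snoRNPs convert uridines to pseudouridine. Nhp2, a small core protein of the H/ACA particle that also sits in telomerase, had levels of 3.71, 3.33 and 4.07 in AOM/DSS neoplasms, 3.69, 3.98 and 3.97 in AOM epithelium, 2.16, 3.40 and 2.87 in DSS epithelium and 1.55, 2.49 and 2.36 in control epithelium. Both AOM/DSS and AOM arrays were above all control arrays. Its differences from control were 1.57 ± 0.35 in AOM/DSS (SE; 2.97-fold, adjusted p = 0.0066) and 1.75 ± 0.35 in AOM (3.36-fold, adjusted p = 0.0091), from limma with n = 3. Fbl (fibrillarin), the C/D methyltransferase, had levels of 5.34, 5.27 and 5.42 in AOM epithelium against 3.57, 4.33 and 4.15 in control epithelium, a called rise of 1.33 ± 0.31 (limma adjusted p = 0.014). In AOM/DSS neoplasms its levels of 4.91, 4.61 and 5.01 were also above every control, with a difference of 0.83 ± 0.31 that did not pass (limma adjusted p = 0.062).

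Nop58, a core C/D protein that binds beside Fbl, was called in AOM/DSS neoplasms and not in AOM epithelium. Its levels were 2.36, 1.98 and 2.80 in AOM/DSS neoplasms, 0.54, 1.15 and 1.55 in AOM epithelium, 1.07, 1.07 and 0.83 in DSS epithelium and 0.71, 1.52 and 1.78 in control epithelium. AOM/DSS arrays stood above all others, and AOM arrays overlapped with the controls. The difference was 1.04 ± 0.34 from control (limma adjusted p = 0.036) and 1.30 ± 0.34 from AOM (limma adjusted p = 0.017), whereas AOM differed from control by -0.26 ± 0.34 (limma adjusted p = 0.58). Dkc1 (dyskerin), the pseudouridine synthase of the H/ACA particle, was likewise higher in AOM/DSS neoplasms than in AOM epithelium, by 1.27 ± 0.41 (limma adjusted p = 0.034), and its 1.06 ± 0.41 over control did not pass (limma adjusted p = 0.067). The calls against AOM were kept in 16 of 22 alternatives for Nop58 and 14 of 22 for Dkc1. Gar1, the other H/ACA protein, rose by 1.65 ± 0.57 in AOM/DSS neoplasms over control (limma adjusted p = 0.044). Its control levels of -2.27, -0.84 and -0.88 were spread widely, AOM levels ran from -0.90 to 0.87, and the call was kept in 12 of 22 alternatives.

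Of the 3 nucleolar phosphoproteins, 1 passed in AOM/DSS neoplasms against control. Ncl (nucleolin), an abundant RNA-binding protein of the nucleolus, had levels of 5.33, 5.04 and 5.49 in AOM/DSS neoplasms, 3.85, 4.07 and 4.91 in AOM epithelium, 3.99, 4.02 and 3.77 in DSS epithelium and 3.56, 4.06 and 4.68 in control epithelium. Every AOM/DSS array was above every other array. It rose by 1.18 ± 0.33 over control, by 1.00 ± 0.33 over AOM and by 1.36 ± 0.33 over DSS (limma adjusted p = 0.019, 0.037 and 0.012). The call against AOM was kept in 13 of 22 alternatives. Npm1 (nucleophosmin), a histone chaperone and assembly factor, had levels of 5.43, 5.38 and 6.28 in AOM/DSS neoplasms against 4.26, 4.62 and 5.57 in control epithelium, and these overlap. Its rise passed against DSS (1.33 ± 0.43, limma adjusted p = 0.035) and not against control (0.88 ± 0.43, limma adjusted p = 0.13). Nolc1, a snoRNP chaperone, had a difference of 0.91 ± 0.34 from control in AOM/DSS (limma adjusted p = 0.062) and 0.78 ± 0.34 in AOM (limma adjusted p = 0.10).

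All 3 RNA polymerase I subunits rose in AOM epithelium over control, and Polr1a and Polr1b rose in AOM/DSS neoplasms. Polr1a and Polr1b form the catalytic core. Polr1b levels were 0.59, 0.20 and 0.04 in AOM/DSS neoplasms, -0.31, -0.34 and -0.16 in AOM epithelium, -1.47, -0.77 and -0.79 in DSS epithelium and -1.85, -1.05 and -0.79 in control epithelium, with no overlap between control and either AOM/DSS or AOM. The rises of Polr1b were 1.51 ± 0.30 in AOM/DSS (limma adjusted p = 0.0039) and 0.96 ± 0.30 in AOM (limma adjusted p = 0.035), and those of Polr1a were 0.79 ± 0.25 and 0.84 ± 0.25 (limma adjusted p = 0.034 and 0.030). Polr1c, which RNA polymerase III shares, had levels of 3.41, 3.33 and 3.47 in AOM/DSS neoplasms, 4.09, 3.96 and 3.94 in AOM epithelium, 3.31, 3.90 and 3.88 in DSS epithelium and 3.29, 3.43 and 3.27 in control epithelium. It rose by 0.66 ± 0.20 in AOM over control (limma adjusted p = 0.028) and was lower in AOM/DSS than in AOM by a difference of -0.59 ± 0.20 (limma adjusted p = 0.038). The second call was kept in 8 of 22 alternatives. AOM/DSS and control differed by 0.07 ± 0.20 (limma adjusted p = 0.81). The rises in AOM over control were kept in 17 of 22 alternatives for Polr1a, 14 for Polr1b and 14 for Polr1c. Those in AOM/DSS over control were kept in 15 of 22 for Polr1a and 20 of 22 for Polr1b. None of these calls was kept with normexp background correction or with slide as a block.

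Of the 11 proteins of the small subunit processome, the large particle that forms on the precursor RNA and releases the 40S part, 5 rose in AOM/DSS neoplasms over control and 5 in AOM epithelium over control. Heatr1, Utp15 and Noc4l are in both counts. Heatr1, which is also needed for RNA polymerase I transcription, had levels of 1.46, 1.22 and 1.23 in AOM/DSS neoplasms, 0.61, 0.89 and 0.81 in AOM epithelium, -0.07, 0.50 and 0.27 in DSS epithelium and -0.71, 0.13 and 0.17 in control epithelium. These levels fall in the order AOM/DSS, AOM, DSS and control by mean, the DSS and control arrays overlapping. The rises over control were 1.44 ± 0.26 in AOM/DSS (limma adjusted p = 0.0023) and 0.91 ± 0.26 in AOM (limma adjusted p = 0.027). Noc4l, the partner of Nop14, rose by 1.37 ± 0.26 and 1.50 ± 0.26 (limma adjusted p = 0.0027 and 0.0059). Utp15, part of the early UTP-A complex, rose by 1.54 ± 0.25 and 0.82 ± 0.25 (limma adjusted p = 0.0011 and 0.029), but its probe was well above background on 1 of 3 control arrays, and with normexp background correction the differences were -0.46 and -0.72.

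Wdr43 and Wdr3, WD-repeat proteins of the processome, were higher in AOM/DSS neoplasms than in each other group. Wdr43 had levels of 1.09, 0.51 and 1.02 in AOM/DSS neoplasms, -0.20, 0.13 and 0.15 in AOM epithelium, -0.05, -0.25 and -0.36 in DSS epithelium and -0.46, 0.03 and 0.21 in control epithelium. The AOM/DSS arrays lay above all others, and the rest overlapped. The differences were 0.94 ± 0.24 from control, 0.85 ± 0.24 from AOM and 1.10 ± 0.24 from DSS (limma adjusted p = 0.012, 0.022 and 0.0078). Wdr3 rose by 1.01 ± 0.19 over control, by 0.59 ± 0.19 over AOM and by 0.88 ± 0.19 over DSS (limma adjusted p = 0.0029, 0.035 and 0.0074). The calls against AOM were kept in 16 of 22 alternatives for Wdr43 and 11 of 22 for Wdr3.

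Rrp9 and Imp4 rose in AOM epithelium over control, and their AOM/DSS differences from control did not pass. Rrp9, a protein that binds the snoRNA of the processome, had levels of 0.75, 0.41 and 0.67 in AOM/DSS neoplasms, 1.42, 1.56 and 1.33 in AOM epithelium, -0.34, 0.99 and 0.47 in DSS epithelium and -0.58, 0.08 and -0.10 in control epithelium. AOM arrays were the highest, and the AOM/DSS arrays lay between them and the controls. The difference was 1.63 ± 0.31 in AOM over control (3.10-fold, limma adjusted p = 0.0081), 0.81 ± 0.31 in AOM/DSS over control (limma adjusted p = 0.068) and -0.82 ± 0.31 in AOM/DSS against AOM (limma adjusted p = 0.060). Imp4 rose by 1.30 ± 0.32 in AOM (limma adjusted p = 0.017); it was well above background on 1 of 3 control arrays, and normexp correction gave -0.48. Utp14a, Utp20, Imp3 and Nop14 passed in 0 of the 6 comparisons by their brightest probe. Utp20 levels of 0.74, 0.72 and 0.67 in AOM/DSS neoplasms lay below the controls at 0.86, 1.81 and 1.05.

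Among the factors of later 40S assembly, Bysl (bystin) rose in AOM epithelium over control by 1.25 ± 0.31 (limma adjusted p = 0.017), with levels of 2.63, 2.54 and 2.68 against 1.23, 1.74 and 1.13. In AOM/DSS neoplasms its levels were 2.31, 2.17 and 2.20, a difference of 0.86 ± 0.31 from control that just missed the threshold (limma adjusted p = 0.053). Tsr1, a GTPase-like factor on late 40S particles, went the other way. Its levels were 1.47, 1.00 and 1.42 in AOM/DSS neoplasms, 0.32, 0.59 and 0.98 in AOM epithelium, 1.27, 0.77 and 1.26 in DSS epithelium and 1.61, 1.64 and 1.38 in control epithelium. Every AOM array was below every control array, a difference of -0.92 ± 0.24 (limma adjusted p = 0.020), and AOM/DSS was higher than AOM by 0.67 ± 0.24 (limma adjusted p = 0.049), calls kept in 15 and 8 of 22 alternatives. A second Tsr1 probe missed in AOM against control (-0.66 ± 0.24, limma adjusted p = 0.054) and passed in AOM/DSS against AOM (0.89 ± 0.24, limma adjusted p = 0.017). Rrp12 was listed with control levels of -4.68, -2.81 and -2.30, and neither its 1.02 ± 0.53 in AOM/DSS nor its 1.24 ± 0.53 in AOM passed (limma adjusted p = 0.16 and 0.090).

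The PeBoW complex joins Pes1, Bop1 and Wdr12 on the 60S precursor. Its proteins all rose in AOM epithelium over control, by 1.15 ± 0.23 for Pes1, 1.15 ± 0.31 for Bop1 and 1.09 ± 0.30 for Wdr12 (limma adjusted p = 0.0088, 0.021 and 0.024). In AOM/DSS neoplasms over control Pes1 and Wdr12 rose by 0.88 ± 0.23 and 1.61 ± 0.30 (limma adjusted p = 0.013 and 0.0028), and Bop1 differed by 0.29 ± 0.31 (limma adjusted p = 0.50). Bop1 levels were 2.15, 2.75 and 2.53 in AOM/DSS neoplasms, 3.36, 3.36 and 3.29 in AOM epithelium, 1.96, 3.18 and 2.91 in DSS epithelium and 2.06, 2.50 and 1.99 in control epithelium. AOM arrays were above all others, and AOM/DSS was lower than AOM by a difference of -0.86 ± 0.31 (limma adjusted p = 0.049). That call sits at the threshold, and it was kept in 6 of 22 alternatives.

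Gnl3 (nucleostemin), a nucleolar GTP-binding protein known from stem cells and tumours, had the largest rise of the 39 in AOM/DSS neoplasms over control. Its levels were 1.54, 1.10 and 1.63 in AOM/DSS neoplasms, -0.95, -0.35 and 0.12 in AOM epithelium, -0.99, -0.65 and -1.45 in DSS epithelium and -2.07, -0.91 and -0.45 in control epithelium. AOM/DSS arrays stood apart from all 9 others, which overlapped among themselves. The difference was 2.57 ± 0.42 from control (5.92-fold, adjusted p = 0.0013), 1.82 ± 0.42 from AOM (3.52-fold, adjusted p = 0.011) and 2.45 ± 0.42 from DSS (5.47-fold, adjusted p = 0.0026), all by limma with n = 3. AOM against control was 0.75 ± 0.42 (limma adjusted p = 0.18). Blocking on slide gave differences of 2.77 from control, 1.97 from AOM and 3.13 from DSS, and the last was no longer called (limma adjusted p = 0.075).

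Nop16, Wdr74, Nop2, Nip7, Rrs1 and Rrp1b, which act in 60S assembly, rose both in AOM/DSS neoplasms and in AOM epithelium. Nop16 had levels of 1.69, 1.57 and 1.53 in AOM/DSS neoplasms, 1.18, 1.39 and 1.61 in AOM epithelium, -0.14, 1.00 and 0.40 in DSS epithelium and -0.48, 0.33 and 0.02 in control epithelium. AOM/DSS and AOM arrays were above all DSS and control arrays. Over control it rose by 1.64 ± 0.30 in AOM/DSS (limma adjusted p = 0.0024) and 1.44 ± 0.30 in AOM (limma adjusted p = 0.010). For the other 5 the AOM/DSS differences ran from 1.21 (Nip7) to 1.54 (Rrp1b) and the AOM differences from 1.20 (Rrp1b) to 1.67 (Wdr74). Noc2l and Noc3l, a pair that accompanies 60S precursors, rose by 0.88 ± 0.29 and 1.51 ± 0.23 in AOM/DSS (limma adjusted p = 0.038 and 0.00093) and by 1.21 ± 0.29 and 0.86 ± 0.23 in AOM (limma adjusted p = 0.015 and 0.022). With normexp correction Noc3l was at 0.23 in AOM/DSS and -0.21 in AOM, and Rrp1b was at 0.65 and 0.34, none of them called.

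Ddx21, a nucleolar RNA helicase, and Ebna1bp2, a 60S factor, rose in AOM/DSS neoplasms and not past the threshold in AOM epithelium. Ddx21 had levels of 1.13, 1.09 and 1.47 in AOM/DSS neoplasms, -0.06, 0.67 and 0.52 in AOM epithelium, -0.13, 0.13 and -0.20 in DSS epithelium and -0.71, -0.01 and 0.26 in control epithelium. It was higher in AOM/DSS by 1.38 ± 0.29 than in control, by 0.85 ± 0.29 than in AOM and by 1.30 ± 0.29 than in DSS (limma adjusted p = 0.0044, 0.039 and 0.0079). For Ebna1bp2 the same differences were 0.73 ± 0.22, 0.67 ± 0.22 and 0.88 ± 0.22 (limma adjusted p = 0.025, 0.034 and 0.012). The calls against AOM were kept in 12 of 22 alternatives for Ddx21 and 14 of 22 for Ebna1bp2. The other probes of Ddx21 missed against AOM (0.56 ± 0.23 and 0.36 ± 0.19, limma adjusted p = 0.073 and 0.17).

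**Figure D3:**
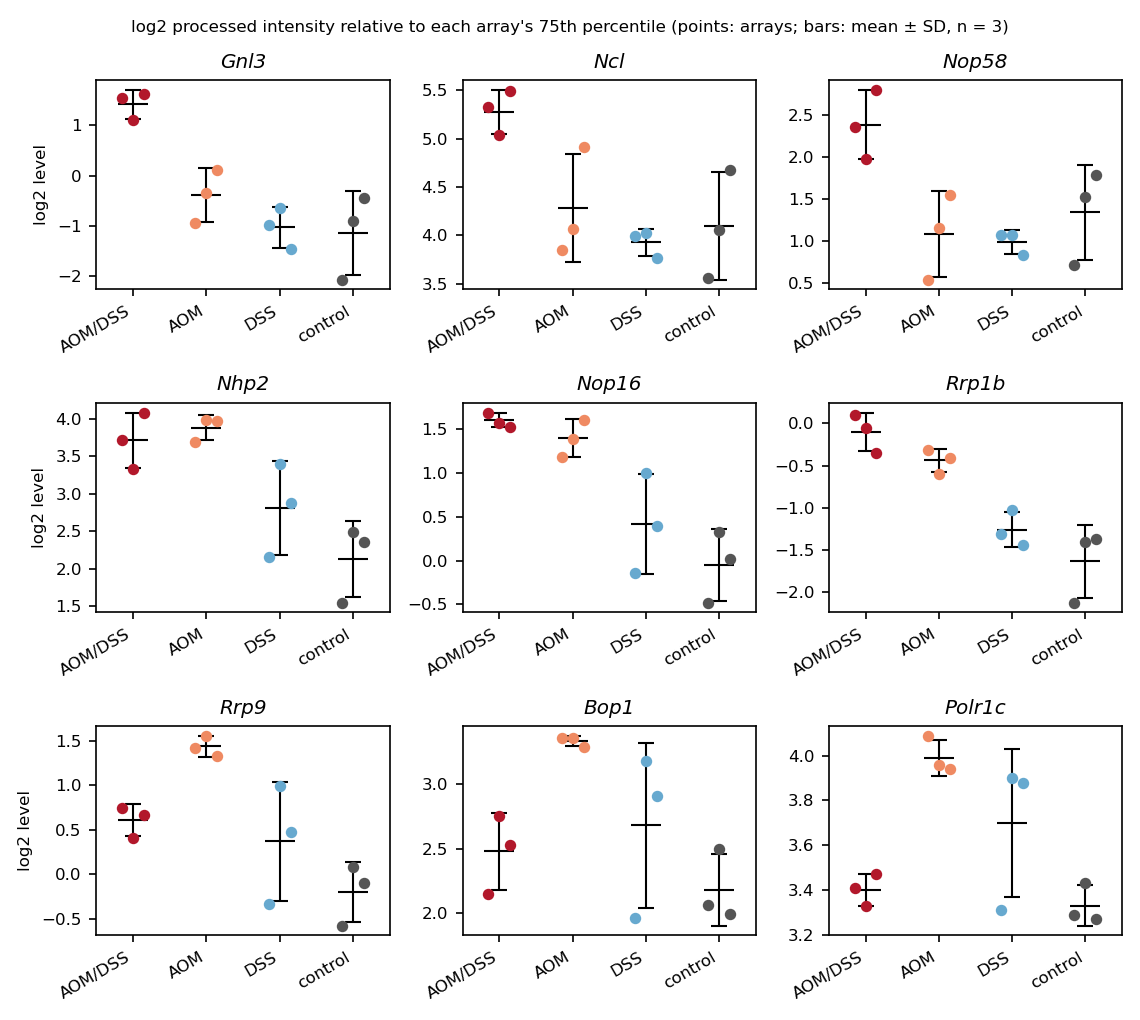
Levels of 9 members on each array (points), as log2 processed intensity relative to the array's 75th percentile, with the mean and SD of each group (bars, n = 3). Gnl3, Ncl and Nop58 stand apart in AOM/DSS, Nhp2, Nop16 and Rrp1b are high in AOM/DSS and AOM, and Rrp9, Bop1 and Polr1c are highest in AOM.

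Set directly against AOM epithelium, AOM/DSS neoplasms had 11 members higher (28.2%), where 19.5% of all genes were called higher, and 2 lower (5.1%), where 17.7% were. The higher ones were Gnl3, Nop58, Dkc1, Ncl, Wdr43, Ddx21, Utp15, Ebna1bp2, Tsr1, Noc3l and Wdr3, and the lower ones were Bop1 and Polr1c. Gnl3 kept its call in all 22 alternatives, and Nop58 and Wdr43 kept theirs in 16. The calls of Noc3l and Bop1 were kept in 6, those of Tsr1 and Polr1c in 8, and that of Utp15 in 7 of 21. The median difference was 0.20 beside -0.04 over all genes and -0.21 over those with a symbol. The lowest AOM/DSS array was above the highest AOM array for 15 members (38.5%), as for 29.3% of all genes, and the highest AOM/DSS array was below the lowest AOM array for 8 members (20.5%), as for 30.3%. The counts depended on single arrays. Without AOM replicate 1 or AOM/DSS replicate 1, 1 call remained, where 4442 of 18961 and 3370 of 18958 genes were called. There were 2 without AOM/DSS replicate 3, where 5078 of 18958 genes were called. Without AOM replicate 2 or AOM/DSS replicate 2 there were 5, where 4454 of 18959 and 4288 of 18958 genes were. There were 7 without AOM replicate 3 or control replicate 2, where 5521 of 18958 and 6460 of 18959 genes were. In each of these settings the share of members called was below that of all genes. Scaling by the median of each array gave 1 higher and 3 lower and a median of -0.12, a setting that shifted the median of all genes by -0.32. That scaling called 2523 of 18958 genes higher and 4972 lower. Within slide 1, which held 2 arrays of each group, 25 members were higher and 14 lower with a median of 0.34. The all-gene share for that count was not computed. With slide as a block Gnl3 was the single call among the members, where 2849 of all 18958 genes were called. Without DSS replicate 1 and control replicate 3, 12 members were higher (30.8%, against 23.4% of all genes) and 3 lower.

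**Figure D4:**
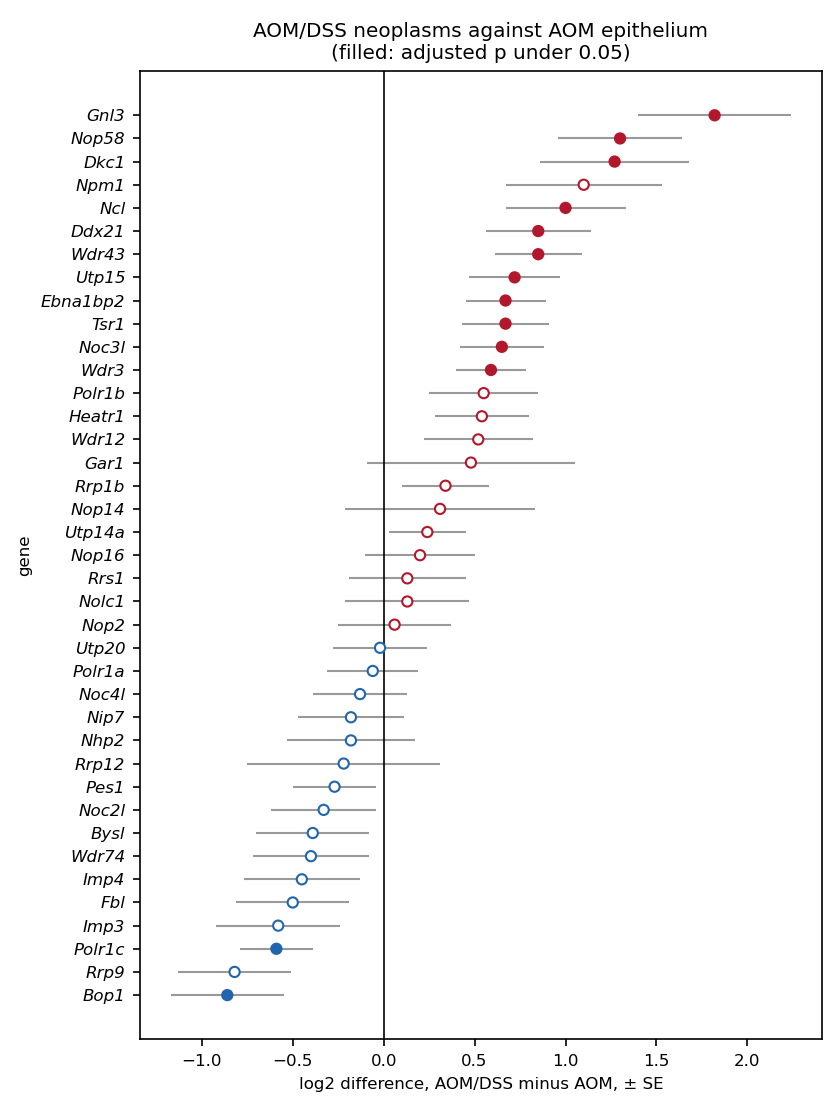
Fitted log2 difference, AOM/DSS minus AOM, with its standard error (bars) for each of the 39 members in order of size, from limma with 3 arrays a group; filled points have an adjusted p under 0.05. Gnl3 lies farthest to the right at 1.82, and Bop1, at -0.86, farthest to the left.

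AOM/DSS neoplasms against DSS epithelium had 19 members higher (48.7%) and 0 lower, where 17.6% of all genes were called higher. The median difference was 0.88 beside 0.04 over all genes and -0.09 over those with a symbol. Gnl3 (2.45), Dkc1 (1.61) and Nop58 (1.39) had the largest differences among the calls. No slide held both groups. With slide as a block the median was 1.11 with 0 calls, where 438 of all 18958 genes were called. Without the block 22 of 39 members had an unadjusted p under 0.05 by limma, as had 9118 of all 18958 genes. Without DSS replicate 1 and control replicate 3, 17 members were higher (43.6%, against 25.7% of all genes) and 1 lower, with a median of 0.64. DSS epithelium against AOM epithelium had 0 members called, where 0.0105% of all genes were, by limma. Its median difference was -0.65 beside 0.05 over all genes and -0.04 over those with a symbol. By limma 16 of 39 members had an unadjusted p under 0.05, as had 2810 of all 18958 genes. Every DSS array was below every AOM array for 22 members (56.4%), as for 10.7% of all genes, and Noc4l, with DSS levels of 0.27, 1.25 and 0.74 against AOM levels of 1.68, 2.07 and 1.90, is an example. Within slide 2, which held all DSS arrays and 1 AOM array, 37 of 39 members were lower in DSS, with a median of -0.81. The all-gene share for this count was not computed. Leaving out DSS replicate 1 and control replicate 3 gave 0 calls and a median of -0.49.

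Probes of the same gene did not always give the same call. Of the 19 members with several tested probes, 9 had probes that differed in the call for AOM/DSS against control, 5 for AOM against control, 7 for AOM/DSS against AOM and 6 for AOM/DSS against DSS. Nop14, a scaffold protein of the processome, was the widest case. Its brightest probe had levels of -0.81, -2.31 and 0.01 in AOM/DSS neoplasms against -1.48, -1.14 and -0.57 in control epithelium, a difference of 0.03 ± 0.51 (limma adjusted p = 0.97). The other probe had 0.00, -0.09 and 0.02 in AOM/DSS neoplasms against -2.41, -2.33 and -1.64 in control epithelium, and rose by 2.11 ± 0.27 (limma adjusted p = 0.00031). AOM/DSS replicate 2 sets the spread of the first probe. Second probes also passed for Npm1 (1.40 ± 0.38, limma adjusted p = 0.017), Nolc1 (1.41 ± 0.29, limma adjusted p = 0.0047) and Dkc1 (1.59 ± 0.44, limma adjusted p = 0.017), which missed by their brightest probes, and for Utp14a (0.71 ± 0.23, limma adjusted p = 0.035). The reverse held for the other 4 of the 9: another probe missed for Ddx21 (0.56 ± 0.23, limma adjusted p = 0.079), Ncl (0.22 ± 0.39, limma adjusted p = 0.69), Nip7 (1.11 ± 0.55, limma adjusted p = 0.14) and Noc2l (0.73 ± 0.27, limma adjusted p = 0.059), whose brightest probes were called. The remaining probe of Ddx21 passed (0.88 ± 0.19, limma adjusted p = 0.0062). So did those of Ncl (1.22 ± 0.33 and 1.13 ± 0.29, limma adjusted p = 0.015 and 0.012). In AOM/DSS against AOM, another probe missed for Ddx21, Ncl and Utp15, whose brightest probes were called. Another probe passed there for Nop14, Npm1, Utp14a and Wdr12, whose brightest probes missed. Gnl3 and Nhp2 have 1 probe each, so this check does not reach them.

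**Figure D5:**
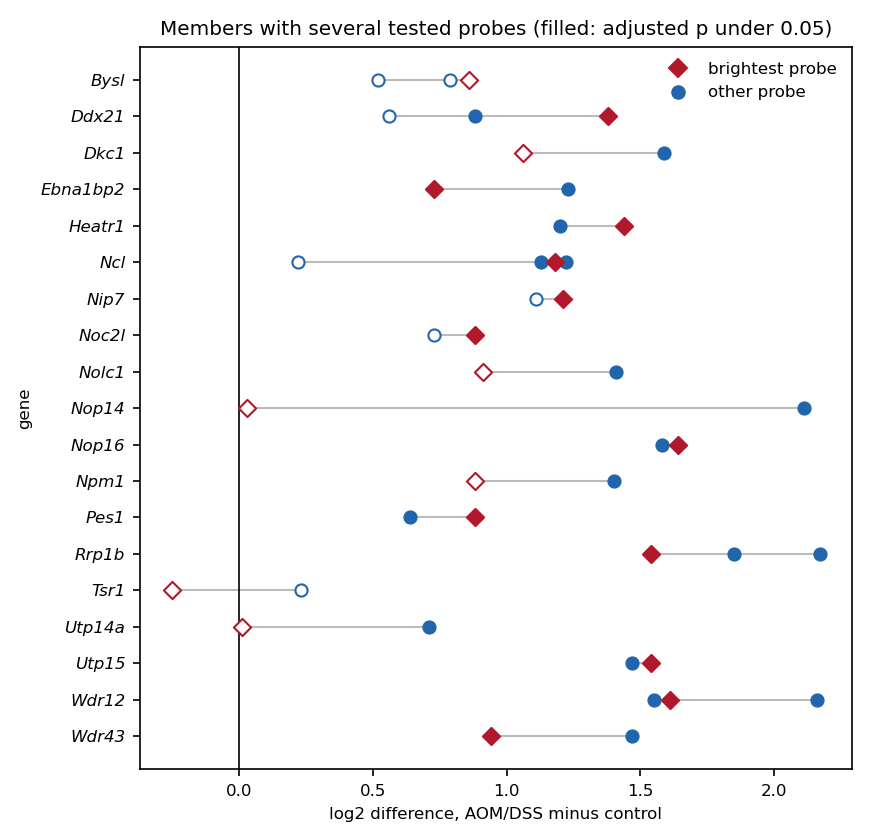
Fitted log2 difference, AOM/DSS minus control, for each tested probe of the 19 members with several probes; diamonds are the brightest probe, circles the others, and filled symbols have an adjusted p under 0.05. The probes of Nop14 lie 0.03 and 2.11 from 0, and those of Nop16 lie close together.

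Other genes of the pathway came from lists written with earlier results of these data known, and their counts stand against 17.2% of all genes called higher in AOM/DSS and 14.8% in AOM, each against control. Of 42 further small subunit factors, 22 (52.4%) were higher and 0 lower in AOM/DSS against control, and 17 (40.5%) higher and 1 lower in AOM against control. Wdr75, a processome protein that works beside Heatr1, rose by 1.73 ± 0.33 in AOM/DSS (limma adjusted p = 0.0031), and Nob1, the nuclease that ends 40S maturation, rose by 1.49 ± 0.25 in AOM/DSS and 1.49 ± 0.25 in AOM (limma adjusted p = 0.0017 and 0.0059). Of 44 further large subunit factors, 30 (68.2%) were higher and 3 lower in AOM/DSS against control, and 18 (40.9%) higher and 0 lower in AOM against control. Ddx18, a nucleolar helicase, rose by 1.71 ± 0.23 in AOM/DSS (limma adjusted p = 0.0005). Against AOM, AOM/DSS had 10 small subunit factors higher and 2 lower (23.8% and 4.8%) and 13 large subunit factors higher and 5 lower (29.5% and 11.4%), where 19.5% and 17.7% of all genes were. Mphosph10, a processome protein, was higher by 1.59 ± 0.30 and Nmd3, the export adaptor of 60S subunits, by 1.43 ± 0.35 (limma adjusted p = 0.0056 and 0.013). AOM/DSS had lower levels of Nop53, by a difference of -1.67 ± 0.27, and of Eif6, which keeps 60S subunits from joining too early, by -1.37 ± 0.33 (limma adjusted p = 0.0033 and 0.012).

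Of 14 further RNA polymerase I and rDNA transcription genes, 3 (21.4%) were higher and 0 lower in AOM/DSS against control, and 4 (28.6%) higher and 1 lower in AOM against control, the first share near that of all genes. Polr1e, a subunit of the polymerase, rose by 1.58 ± 0.30 and 1.37 ± 0.30 (limma adjusted p = 0.0028 and 0.012), and Ttf1, the terminator protein, had a difference of -1.03 ± 0.30 in AOM (limma adjusted p = 0.028). Of 14 genes of the rRNA exosome, which trims precursor ends, 6 (42.9%) and 4 (28.6%) were higher and 0 lower in the same comparisons. All 4 snoRNA host genes on the array (Snhg3, Snhg7, Snhg8 and Snhg17) were higher in AOM/DSS neoplasms than in AOM epithelium, by 0.74 to 1.70, and 3 of them were higher than in control. None of these lists had a call in DSS against control by limma.

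Myc itself and most proliferation genes were higher in AOM/DSS and in AOM than in control, and their part in these counts was not tested. Myc levels were 2.69, 2.30 and 2.03 in AOM/DSS neoplasms, 2.12, 2.27 and 2.76 in AOM epithelium, 0.67, 2.07 and 1.31 in DSS epithelium and 0.31, 1.22 and 0.77 in control epithelium. It rose by 1.57 ± 0.37 in AOM/DSS and 1.61 ± 0.37 in AOM over control (limma adjusted p = 0.0086 and 0.014), and AOM/DSS and AOM differed by -0.04 ± 0.37 (limma adjusted p = 0.94). Of 12 Myc network genes, 3 (25.0%) were higher and 3 (25.0%) lower in AOM/DSS against control. Of all genes 17.2% were higher there, and 3313 of 18958 lower. In AOM against control 4 (33.3%) were higher and 0 lower, where 14.8% and 17.6% of all genes were. Mycn, a relative of Myc, rose by 2.44 ± 0.70 and 2.62 ± 0.70 (limma adjusted p = 0.021 in both). Mxd3, of the same repressor family as Mxd1, rose by 2.42 ± 0.40 and 3.00 ± 0.40 (limma adjusted p = 0.0013 and 0.0033). Mxd1, a repressor that competes with Myc for Max, was lower in AOM/DSS neoplasms than in control, by a difference of -3.39 ± 0.46, and Max itself by -1.82 ± 0.27 (limma adjusted p = 0.00048 and 0.00082). Of 19 proliferation genes, 14 (73.7%) were higher and 1 lower in AOM/DSS against control, beside the same shares of all genes. In AOM against control 16 (84.2%) were higher and 0 lower. The medians were 1.44 and 1.42. On control replicate 1, the array lowest for most members, the median level of the proliferation genes relative to their own means was -1.55, the lowest of the 12 arrays.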

How the data were processed

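Per the file headers, the deposited scanner files hold processed intensity from Agilent Feature Extraction 10.7.3.1, background-subtracted by that software; the authors' deposited matrix holds log2 quantile-normalized values and served as an alternative. Intensity was scaled to each array's 75th percentile and log2-transformed, spots of a probe were averaged, and the brightest probe stood for a gene, named by RefSeq accession. The 18958 genes passing the dim-probe filter were fitted with limma 3.58.1 (R 4.3.3) with 1 mean per group, and p-values were Benjamini-Hochberg adjusted over all of them. Of these, 13516 had a symbol, and the others entered under their sequence name. Precision is limited by 3 arrays a group. The script recovered the median size of the larger changes planted in simulated data. Those data had independent noise for each gene and no slide or array effects, so they do not bear on such effects. Members were named by role, and from each wider list up to 4 called genes with the largest differences per comparison, and Myc. The members and lists were chosen with earlier results of these data known, and the promoters shown for their E-box were chosen after the matches were seen. Alternatives were normexp background, median, quantile and named-probe scaling, the authors' matrix, no filter, slide and replicate blocks and leaving out arrays. Same-numbered arrays did not deviate together (r from -0.271 to 0.245), so numbers were not taken to pair samples. Control spots were left out.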

Additional observations from a re-analysis of the deposited data

How the results depend on the processing

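The count of members called fell to 4 with slide as a block for AOM/DSS against control. For AOM against control it was 13 with normexp background (median 0.63) and 0 with slide as a block. For AOM/DSS against AOM it was 1 with normexp, 4 with median scaling (1 higher, 3 lower, median -0.12), 5 with no filter, 1 with slide as a block (median 0.34) and 8 with the replicate number as a block (7 higher, 1 lower). For AOM/DSS against DSS it was 10 with normexp, 10 with median scaling and 0 with slide as a block. Over all 18958 genes, slide as a block gave 2210 calls for AOM/DSS against control and 4 for AOM against control. It gave 2849 for AOM/DSS against AOM and 438 for AOM/DSS against DSS. Normexp gave 1862 for AOM against control, 1249 for AOM/DSS against AOM and 1883 for AOM/DSS against DSS. Median scaling gave 7495 and 6314 in the last 2 of these. For AOM/DSS against AOM, no filter gave 7169 of 32159 and the replicate block 6755. Leaving out 1 array at a time gave 15 to 29 calls and medians of 0.76 to 1.26 for AOM/DSS against control, 8 to 23 and 0.65 to 1.06 for AOM against control, 0 to 6 and 0.08 to 0.45 for DSS against control, 1 to 14 and 0.12 to 0.35 for AOM/DSS against AOM, 15 to 24 and 0.64 to 0.99 for AOM/DSS against DSS, and 0 calls and -0.86 to -0.49 for DSS against AOM. Over all genes, leaving out 1 array gave 4303 to 7380 calls for AOM/DSS, 1972 to 7301 for AOM and 1 to 3191 for DSS, each against control. It gave 3370 to 8090 for AOM/DSS against AOM, 3315 to 8871 for AOM/DSS against DSS and 0 to 320 for DSS against AOM. Leaving out DSS replicate 1 and control replicate 3, a setting chosen after seeing the data, gave 30 calls for AOM/DSS, 25 for AOM and 4 for DSS, each against control. Of 18959 genes, 7996, 7877 and 4281 were called there. Under normexp Utp15 was -0.46 in AOM/DSS and -0.72 in AOM against control and -0.15 in AOM/DSS against DSS, and Imp4 and Noc3l were -0.48 and -0.21 in AOM against control. Utp15 and Imp4 were not well above background on 2 of 3 control arrays. The cause of these changes was not tested. In all 22 alternatives the calls of Ddx21, Gnl3 and Nhp2 for AOM/DSS against control were kept.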
